A study of Mus musculus with 28 samples.

Results

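Neural stem cells grown from the tail of Wnt1Cre-mTmG mice (tail pNSCs, for peripheral neural stem cells) were compared with neural stem cells from the brain (brain NSCs) of the same kind of mice. The 2 groups were taken by their labels, Wnt1Cre-mTmG Tail pNSCs and Wnt1Cre-mTmG brain NSCs, with 3 libraries each, which makes 6 of the 28 RNA-seq samples in the series. The question behind the comparison was how far cells that grow as neural stem cells, but come from outside the central nervous system, share the expression of brain NSCs, in animals where descendants of the neural crest can be recognised. The other 22 samples belong to 9 groups. Of these, neural crest stem cells from dorsal root ganglia (DRG NCSCs) enter only the fits and the scale of distances. A further 3 groups are used here for reference. These are pNSCs from dorsal root ganglia (DRG pNSCs) of mice of the same line, with 3 libraries, and a separate second pair labelled Tail-pNSC and Brain-NSC, with 2 libraries each. For this pair the labels give the strain and cell type but no reporter allele. By its tissues and number of libraries it was taken to be from the study's experiment on mice with GFP under Nestin regulatory elements. There, GFP-positive cells of the postnatal tail were sorted before culture, whereas the Wnt1Cre-mTmG tail cells were plated unsorted.

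Both groups carried the same 2 alleles, a Wnt1-Cre transgene and the R26-mTmG reporter. The reporter makes membrane Tomato in every cell until Cre removes that cassette, after which the cell and its descendants make membrane GFP. Wnt1-Cre is active in the dorsal neural tube and therefore marks neural crest cells and their progeny, though not each one of them, and it also marks cells of the midbrain. For the tail pNSCs, all cells of the tail of mice at postnatal day 1 to 5 were plated without sorting in serum-free medium with EGF and basic FGF, and the clusters that grew were Tomato-positive and GFP-negative. Clusters were picked singly by pipette, were usually clonal and were passaged, so that each library describes a selected and expanded culture and not the tail. Brain NSCs were grown from whole brain on gelatin in the same kind of medium for several passages, and the age of the animals was not given for this group (postnatal or adult). The study states that its control brain NSCs were in most cases grown from the mice that also gave the pNSCs, without saying so for each group. The labels give C57BL/6 as the strain, whereas the methods of the study name CD1 or a CD1/C3H mixture, and animals of both sexes were used at random.

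Neural stem cells of the central nervous system derive from the neuroepithelium of the neural tube. They divide under EGF and FGF, express transcription factors of the Sox, Pax and Olig families, and give rise to neurons, astrocytes and oligodendrocytes. Along the length of the neural tube they carry a positional record: forebrain cells use factors such as *Six3*, *Emx2* and *Otx1*, while cells of the hindbrain and spinal cord use *Hox* genes, with members of higher number switched on further towards the tail. Across the tube, factors such as *Nkx6-1*, *Dbx2* and the *Irx* genes divide ventral from dorsal progenitors.

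The total counts lay between 19648349 and 22548268 in a tail library and between 9846360 and 11315870 in a brain library, so that a single count stood for a larger share of a brain library. Values are levels in CPM, the counts scaled to a library of 1000000, with library sizes adjusted by edgeR's TMM method and no correction for gene length. Within each group the libraries differed by little more than counting error: the chi-square of the counts of 2 libraries, divided by its degrees of freedom, was 1.165 to 1.411 among tail pNSCs and 1.144 to 1.187 among brain NSCs, where counting error alone gives about 1. The study describes the libraries of a group as biological replicates, but neither it nor the labels say whether they came from separate mice or cultures, and the p-values measure the spread between these libraries only. Of 28244 genes, 14448 had enough counts over the 12 libraries of the Wnt1Cre-mTmG experiment, and 13339 over the 6 libraries alone. The 14448 were tested with edgeR's quasi-likelihood test, with p-values adjusted by Benjamini–Hochberg over these genes. A gene is said to be called where its adjusted p was under 0.05 and its level differed at least 2-fold, which held for 2630 genes or 18.2%, 1323 (9.16%) higher and 1307 (9.05%) lower in tail pNSCs. With the adjusted p alone, 65.5% of the genes passed, so that the fold limit decides most calls. The median log2 fold change of all tested genes was 0.004, and 315 genes (2.18%) differed by a log2 fold change of 4 or more. A count of 3 in every library was taken as the floor where a group had no count, and such differences are given as "at least" that fold. Fitted log2 fold changes of these genes depend on edgeR's prior count. In cultures that may be mixed, fewer cells of a type and less RNA per cell cannot be told apart.

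**Figure D1:**
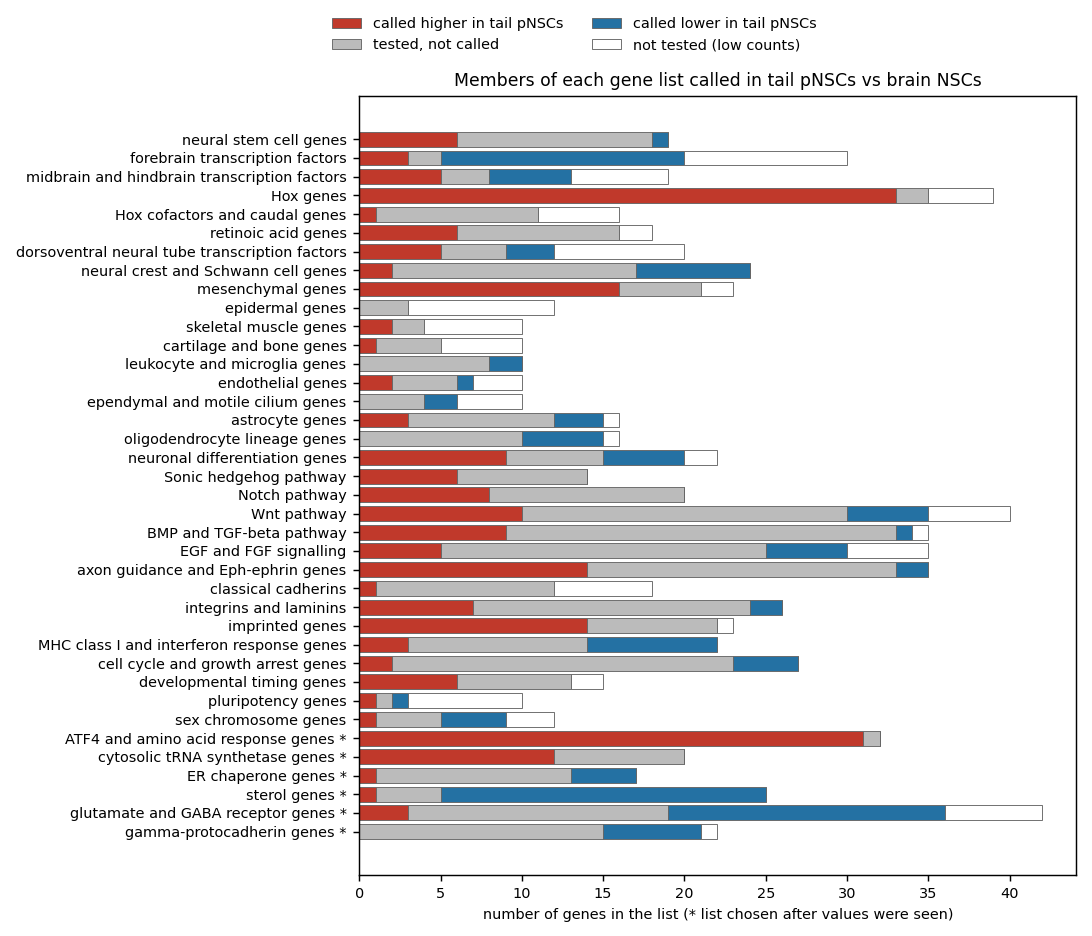
Number of genes called higher (red) or lower (blue) in tail pNSCs than in brain NSCs in each of 38 gene lists, with genes tested and not called (grey) and genes with too few counts to be tested (white). The *Hox*, mesenchymal and amino acid lists are mostly red and blue is the largest part of the forebrain and sterol lists, while the neural stem cell list is mostly grey. Lists marked with an asterisk were chosen after values had been seen.

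Genes that define neural stem cells were detected in both groups, and most of them differed by less than the fold limit. Of 19 such genes, all were tested, 6 were called higher, 1 lower and 12 not called in tail pNSCs, and their median log2 fold change was 0.67. Over all genes 9.16% were called higher and 9.05% lower, so this list held a larger share of rises than the average. At an adjusted p under 0.05 alone 12 of the 19 were higher and 6 lower, against 33.1% and 32.4% of all genes. *Fabp7*, which encodes the radial glial fatty acid binding protein, had 2895, 2868 and 2923 CPM in the tail libraries and 2698, 2693 and 2686 CPM in the brain libraries. The intermediate filament gene *Vim* likewise had 2681 ± 46.4 CPM (SD, n = 3) in tail and 2858 ± 29.2 CPM in brain cells. These 2 genes differed by less than the fold limit, with log2 fold changes of 0.10 and -0.09. Of the SoxB1 factors, *Sox3* had 187 ± 4.29 against 203 ± 4.18 CPM, and *Sox1* had 86.0, 86.8 and 91.9 CPM in tail and 43.6, 47.8 and 45.8 CPM in brain libraries, both under the fold limit. The glial progenitor factor *Olig1* had 1631 ± 22.5 CPM in tail and 2864 ± 4.32 CPM in brain cells, also under it. *Prom1*, which encodes the stem cell surface protein prominin, had 16.2, 15.4 and 15.2 CPM in tail and 4.19, 4.34 and 4.31 CPM in brain libraries. It was called higher, by a log2 fold change of 1.87 ± 0.11 (SE). *Cd9*, a tetraspanin gene, was the member called lower, at 57.5, 51.0 and 54.4 against 123, 125 and 131 CPM.

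Markers of the cell types of the tail other than neural stem cells were examined next. Of 12 epidermal genes 3 could be tested and none was called: *Krt5*, *Krt14* and *Krt15* had no count in any of the 6 libraries, and *Krt10* had 9.43 ± 0.0715 CPM in tail and 9.82 ± 0.301 CPM in brain cells. Of 10 leukocyte genes, all tested, 2 were called lower, *Cd68* and *Csf1r*, at 1.05 ± 0.233 and 0.0171 ± 0.0296 CPM in tail against 2.23 ± 0.444 and 0.192 ± 0.197 CPM in brain cells. Both calls rest on few counts: that of *Cd68* was lost without tail library 1 or brain library 3, that of *Csf1r* without tail library 1 or 2 or brain library 1 or 2, and both in libraries thinned to equal totals. *Ptprc*, *Tyrobp*, *C1qa* and *Cx3cr1* had no count in any of the 6 libraries, and were tested only for their counts in other libraries of the fit. The muscle factors *Myf5* and *Myog* were at 0 in all 6, and of 4 tested muscle genes (of 10) *Des* and *Actc1* were called higher, *Actc1* at 5.87 ± 0.225 against 2.00 ± 0.491 CPM and *Des* at 0.124 ± 0.0656 CPM against no count, a call lost without brain library 3 and with the 6 libraries fitted alone, where *Des* was not tested. Of 5 tested cartilage and bone genes (of 10) *Runx2* was called higher, at 13.4 ± 0.417 against 2.71 ± 0.549 CPM, while *Col2a1*, the collagen gene of cartilage, had 0.317 ± 0.0109 CPM in tail cells. Of 7 tested endothelial genes (of 10) *Pecam1* and *Emcn* were called higher and *Flt1* lower, and *Pecam1* had 0.429 ± 0.126 CPM in tail against 0.117 ± 0.131 CPM in brain cells, a call lost without tail library 2 or brain library 1 or 2 and in the thinned libraries. Of 6 tested genes of ependymal and motile cilia (of 10) 2 were called lower, against 1 in the thinned libraries or with the 6 libraries fitted alone, and the ciliary factor *Foxj1* had 51.9 ± 0.999 against 53.8 ± 1.56 CPM. Of 24 neural crest and Schwann cell genes, 2 were called higher and 7 lower, with a median log2 fold change of -0.09. By role, 1 of 12 crest specifier genes was called higher and 2 lower, and 1 of 12 Schwann cell genes higher and 5 lower, the latter with a median of -0.69. Without tail library 1 or without brain library 2, 4 genes of the list were called higher and 5 lower. The members called higher were *Ngfr*, the p75 neurotrophin receptor gene, at 3.63, 3.48 and 3.75 CPM in tail and 0.638, 0.493 and 0.517 CPM in brain libraries, and *Ncam1*, a neural cell adhesion molecule gene, at 400.2 ± 5.06 against 184 ± 1.43 CPM. *Foxd3*, a crest specifier, had 0.0895, 0.0940 and 0 CPM in tail and 0, 0.0985 and 0 CPM in brain libraries, and *Tfap2b* had no count in either group. *Tfap2a* had 0, 0.0470 and 0 CPM in tail and 2.28, 2.96 and 3.62 CPM in brain libraries. *Cdh19*, a cadherin gene of Schwann cell precursors, had 0.358, 0.329 and 0.154 CPM in tail and 14.6, 18.2 and 17.4 CPM in brain libraries, and *Dhh*, the Schwann cell hedgehog ligand, had 0.940, 0.705 and 0.924 against 15.6, 16.3 and 15.3 CPM. Both were called lower in tail pNSCs, *Cdh19* with a log2 fold change of -5.83 ± 0.24 (SE) and *Dhh* with -4.19 ± 0.13 (SE).

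Mesenchymal genes held the most rises among these markers. Of 23 genes 21 were tested, 16 were called higher in tail pNSCs and none lower, and their median log2 fold change was 2.63. *Col3a1*, the gene of a fibrillar collagen of loose connective tissue, had 198, 194 and 192 CPM in the tail libraries and 4.46, 4.83 and 3.53 CPM in the brain libraries. *Col6a3*, which encodes a chain of the beaded collagen around cells, had 85.4, 84.4 and 87.1 CPM in tail and 0.911, 1.08 and 1.47 CPM in brain libraries. The periostin gene *Postn* had 96.8, 96.1 and 95.4 against 3.83, 2.86 and 1.90 CPM. For these 3 genes the groups stood far apart, and the log2 fold changes were 5.52 ± 0.10, 6.20 ± 0.11 and 5.08 ± 0.13 (SE). *Pdgfrb*, a receptor of pericytes and fibroblasts, had 9.01 ± 0.113 CPM in tail and 0.555 ± 0.195 CPM in brain cells, and the proteoglycan gene *Lum* had 8.66 ± 0.187 against 0.300 ± 0.183 CPM. Summed over the list, the level was 1103 to 1122 CPM in tail and 298 to 312 CPM in brain libraries. *Twist2*, a factor of dermal fibroblasts, had 0.0448, 0.0470 and 0 CPM in the tail libraries and no count in the brain libraries, and *Twist1* had 7.55 ± 0.778 in tail against 7.73 ± 0.745 CPM in brain cells. The DRG pNSCs of the same mouse line had *Col3a1* at 15.4 ± 0.692, *Col6a3* at 0.0995 ± 0.100 and *Postn* at 0.253 ± 0.250 CPM. In the separate Tail-pNSC libraries *Col3a1* had 0.271 and 0.0961 CPM and *Col6a3* had 0.163 and 0.0481 CPM. The part of these genes in the other differences between the groups was not tested.

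The *Hox* genes differed in nearly every member. Of 39 genes of the 4 clusters 35 were tested, 33 were called higher in tail pNSCs and none lower, with a median log2 fold change of 7.19, or 4.26 with genes absent from brain NSCs set at their lower bound. Among genes with a mean count of at least 100, 13 *Hox* genes were called higher and none lower. Summed over all *Hox* genes, the tail libraries had 470.0 to 487 CPM and the brain libraries 3.92 to 4.57 CPM, and 26 of the 39 genes had no count in any brain library. By position, 10 of 12 anterior genes (paralogs 1 to 4), 9 of 11 central genes (5 to 8) and 14 of 16 posterior genes (9 to 13) were called higher. In the tail libraries the posterior genes summed to 277 to 287 CPM, the central genes to 157 to 161 CPM and the anterior genes to 33.9 to 39.3 CPM, and in the brain libraries no class exceeded 3.45 CPM. *Hoxb13*, the last gene of its cluster (chromosome 11, 96194316 to 96197447 in GRCm38), had 51.0, 52.3 and 54.4 CPM in the tail libraries and no count in the brain libraries, a difference of at least 191-fold. *Hoxd10* had 19.4, 20.5 and 20.3 CPM against no count, at least 72.8-fold, and *Hoxa10* had 45.2, 47.4 and 48.3 CPM against 0, 0 and 0.0862 CPM in brain libraries. No gene of the HoxC cluster passed 1.79 CPM in a tail library: *Hoxc13* had 1.66, 1.79 and 1.18 CPM, and *Hoxc8* had 0.0448, 0 and 0.0513 CPM in tail and 0, 0 and 0.0862 CPM in brain libraries, where the groups overlapped.

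The DRG pNSCs, at a depth close to that of the brain NSCs, carried another set of levels. In them *Hoxa9* had 133, 129.9 and 129 CPM and *Hoxc8* 24.9, 27.7 and 26.7 CPM, while *Hoxa9* had 22.2, 24 and 23.4 CPM in the tail libraries. *Hoxb9* had 1.31 ± 0.320 and *Hoxb13* 0.468 ± 0.247 CPM in DRG pNSCs. The same fit called *Hoxb9* and *Hoxb13* higher in tail than in DRG pNSCs (log2 fold changes of 5.96 and 6.77), and *Hoxa9* and *Hoxc8* lower (-2.50 and -9.38). Brain NSCs had no count of *Hoxa9*, *Hoxb9* or *Hoxb13*. Of the genes whose products act with Hox proteins, *Meis1* was called higher, at 119.8 ± 1.09 against 56.0 ± 3.55 CPM, and the other 8 cofactor genes were not called. The caudal genes *Cdx1* and *Cdx2*, which act upstream of posterior *Hox* genes in the embryo, had no count in either group.

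**Figure D2:**
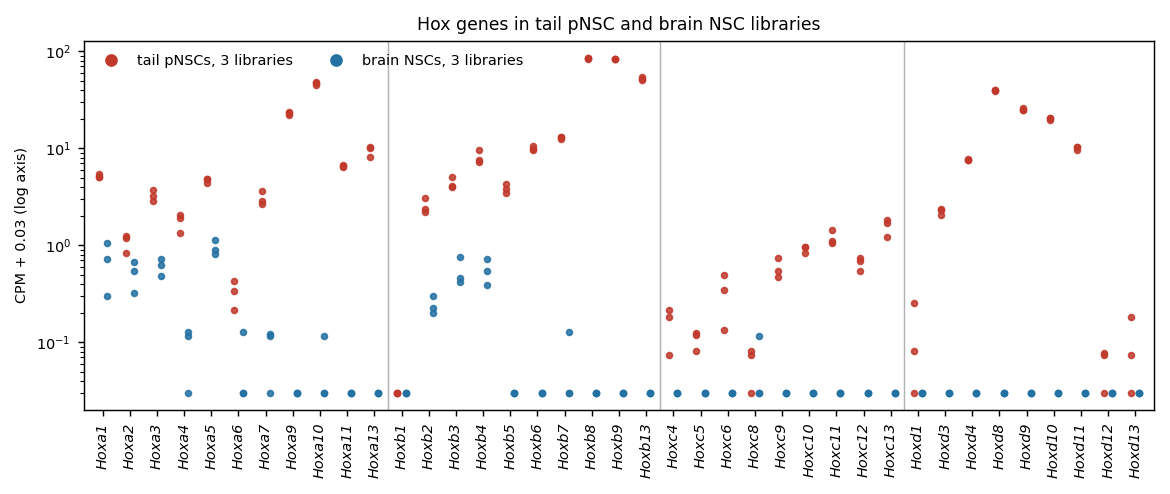
Levels of the 39 *Hox* genes in the 3 tail pNSC (red) and 3 brain NSC (blue) libraries, in CPM with 0.03 added on a log axis, ordered by cluster and position. Brain libraries lie at the floor for most genes, and the tail libraries reach above 10 CPM in HoxA, HoxB and HoxD and stay under 2 CPM in HoxC.

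Forebrain factors changed the other way. Of 30 genes 20 were tested, 15 were called lower in tail pNSCs and 3 higher, and the median log2 fold change was -5.11, or -3.98 at the lower bounds. Among genes with a mean count of at least 100, 3 were called lower and 3 higher. *Otx1*, active in forebrain and midbrain, had 12.8, 12.6 and 13 CPM in brain libraries and none in tail libraries, at least 89.6-fold lower. *Emx2*, of the dorsal telencephalon, had 34.3, 34.1 and 33.4 CPM in brain and 0.0895, 0.0470 and 0.0513 CPM in tail libraries, a brain-to-tail ratio of 535 (95% counting interval 209 to 1968). *Nr2e1*, an orphan nuclear receptor of forebrain stem cells, had 39.1, 40.3 and 39.6 CPM in brain and 0.134, 0 and 0 CPM in tail libraries. In each of these 3 genes every brain library lay above every tail library. *Lhx2*, a LIM factor of the cortical progenitor field, was lower without being absent, at 3.49, 3.10 and 3.39 CPM in tail and 63.8, 68.5 and 62.7 CPM in brain libraries. Among the members called higher, *Sp8*, a zinc finger gene used in the forebrain and also in limb and tail buds, had 48.1, 47.4 and 49.3 CPM in tail and 0.455, 0.493 and 0.431 CPM in brain libraries, with a log2 fold change of 6.69 ± 0.14 (SE). *Nr2f1*, a nuclear receptor gene of the cortex, was tested and not called, at 102 ± 2.44 against 85.1 ± 3.38 CPM. *Six3* and its antisense neighbour *Six3os1* overlap, and without a stated strand their reads cannot be told apart.

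Midbrain and hindbrain factors split: 5 of the 13 tested (of 19) were called higher and 5 lower. *En2*, a marker of the midbrain–hindbrain boundary, had 0.671, 0.517 and 0.411 CPM in tail and 6.47, 6.80 and 5.43 CPM in brain libraries, and *Foxa1*, a gene of the ventral midline, had no count in tail libraries and 3.73, 3.15 and 4.74 CPM in brain libraries. *Gbx2*, which marks the hindbrain side of that boundary, was higher in tail pNSCs, at 7.70, 6.72 and 9.35 against 2.00, 1.18 and 1.81 CPM, and so was *Zic2*, at 25.3 ± 0.956 against 10.0 ± 0.502 CPM. Among dorsoventral factors 5 of 12 tested (of 20) were called higher and 3 lower. *Nkx6-1*, which marks ventral progenitors of hindbrain and spinal cord, had 91.1, 92.9 and 93.6 CPM in tail and 0.729, 0.493 and 0.517 CPM in brain libraries. The difference had a log2 fold change of 7.30 ± 0.16 (SE), with an edgeR adjusted p of 1.94e-16. *Dbx2*, of intermediate progenitors, had 265, 267 and 266 against 85, 89.1 and 84.1 CPM. The *Irx* genes went in both directions. *Irx1* and *Irx2* were called higher, at 21.4 ± 0.700 and 19.9 ± 0.620 CPM in tail against 4.76 ± 0.489 and 3.06 ± 0.0401 CPM in brain cells. *Irx3* and *Irx5* were called lower, at 2.51 ± 0.317 and 1.81 ± 0.481 against 9.28 ± 1.52 and 10.3 ± 1.20 CPM. The dorsal genes *Pax3* and *Pax7* had 2 counts or fewer over the 3 libraries of either group (means of 0.0313 and 0.0149 CPM in tail cells), whereas DRG pNSCs had 9.63 ± 1.26 and 7.10 ± 0.833 CPM.

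Retinoic acid, a vitamin A derivative, patterns the trunk neural tube and acts through nuclear receptors. Of 18 genes of its pathway 16 were tested, 6 were called higher in tail pNSCs and none lower. *Rara*, a retinoic acid receptor gene, had 32.6, 35.9 and 32.9 CPM in tail and 6.56, 7.39 and 7.93 CPM in brain libraries. *Crabp1*, which encodes a cytoplasmic retinoic acid binding protein, had 11.4, 9.54 and 10.1 against 0.0911, 0.197 and 0.259 CPM, a tail-to-brain ratio of 56.5 (95% counting interval 25.8 to 155). *Stra6*, the retinol uptake receptor gene, had 1.43, 1.60 and 1.54 against 0.0911, 0 and 0 CPM. The synthesis genes *Aldh1a1* and *Aldh1a3* were tested and not called, and the degradation genes *Cyp26a1* and *Cyp26c1* had 1 count or none over the 6 libraries.

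**Figure D3:**
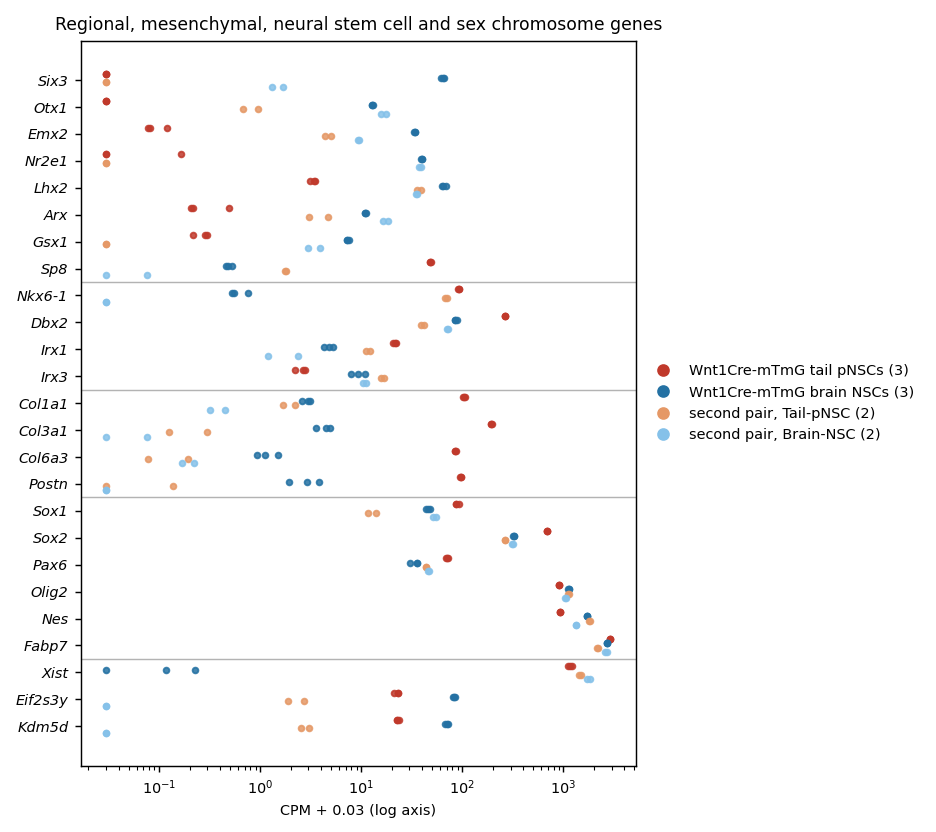
Levels of 25 regional, mesenchymal, neural stem cell and sex chromosome genes by library, in CPM with 0.03 added on a log axis, for Wnt1Cre-mTmG tail pNSCs and brain NSCs (3 libraries each) and for the separate Tail-pNSC and Brain-NSC pair (2 each). *Six3* is absent from the tail libraries of both pairs, whereas the collagen genes are high only in the Wnt1Cre-mTmG tail libraries and *Xist* is near 0 only in the Wnt1Cre-mTmG brain libraries.

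A large difference lay outside the neural genes. Cells that lack an amino acid, or whose mitochondria or endoplasmic reticulum are under stress, translate the transcription factor ATF4, which binds a short promoter motif and raises genes of amino acid uptake, amino acid synthesis and tRNA charging. A list of 32 such genes, put together after these values had been seen, held 31 genes called higher in tail pNSCs and none lower, with a median log2 fold change of 3.05 against 0.004 over all genes. Summed over the list, the tail libraries had 12434 to 12662 CPM and the brain libraries 2521 to 2552 CPM. The motif is shown in the promoters of 3 of the genes, and a motif of sterol genes in 1. The letters are those that ATF4 with its partners and SREBP are known to bind. Whether these factors had a part in the differences was not tested. Each line gives the 250 bases before the annotated start of the gene on its own strand (RefSeq, GRCm38.p6), with capitals for the letters TGATGCAA or their reverse complement, and in *Hmgcs1* for TCACNCCAC, where N is any base.
*Chac1* (chr2:119350992-119351241, plus strand): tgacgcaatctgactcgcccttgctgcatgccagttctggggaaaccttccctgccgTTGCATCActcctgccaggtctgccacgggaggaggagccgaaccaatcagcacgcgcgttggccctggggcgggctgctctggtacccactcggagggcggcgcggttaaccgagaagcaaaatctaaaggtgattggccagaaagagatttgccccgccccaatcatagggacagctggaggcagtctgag
*Slc7a11* (chr3:50443614-50443863, minus strand): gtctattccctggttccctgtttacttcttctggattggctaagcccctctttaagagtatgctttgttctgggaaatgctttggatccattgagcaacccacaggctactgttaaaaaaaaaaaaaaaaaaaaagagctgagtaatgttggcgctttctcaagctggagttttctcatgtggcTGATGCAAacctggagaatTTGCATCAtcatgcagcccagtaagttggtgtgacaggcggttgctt
*Nupr1* (chr7:126625471-126625720, minus strand): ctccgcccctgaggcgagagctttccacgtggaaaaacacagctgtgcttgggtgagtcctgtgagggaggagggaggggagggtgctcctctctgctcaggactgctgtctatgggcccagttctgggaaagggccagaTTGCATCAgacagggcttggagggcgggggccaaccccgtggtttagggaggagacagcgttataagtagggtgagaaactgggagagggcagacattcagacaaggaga
*Hmgcs1* (chr13:119690101-119690350, plus strand): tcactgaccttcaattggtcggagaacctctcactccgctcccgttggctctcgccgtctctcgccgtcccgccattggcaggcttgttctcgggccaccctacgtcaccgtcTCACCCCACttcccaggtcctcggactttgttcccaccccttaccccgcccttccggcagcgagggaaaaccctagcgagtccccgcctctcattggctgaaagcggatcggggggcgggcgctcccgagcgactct
In *Slc7a11* the motif stands on both strands within the same stretch, 66 and 47 bases before the start when counted to its first base, and in *Chac1* and *Nupr1* it lies 193 and 110 bases before the start.

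RefSeq held a window of 300 bases, from 250 before to 50 after the start, for 26 of the 32 amino acid genes. TGATGCAA, searched on both strands, was in the window of 8 of these 26 genes (30.8%): *Atf3*, *Nupr1*, *Slc7a11*, *Slc1a4*, *Pycr1*, *Chac1*, *Vldlr* and *Fgf21*. It was in that of 4 of 12 tRNA synthetase genes (33.3%), *Aars*, *Iars*, *Tars* and *Yars*, and in none of 17 sterol, 22 *Hox* or 24 forebrain genes with a window. Among all tested genes with a window it was in 76 of 11154 (0.681%), and among all 27025 genes with a window in 279 (1.03%). The sterol motif TCACNCCAC was in 1 of 17 sterol genes, *Hmgcs1*, and in 162 of the 11154 tested genes (1.45%). A match gives letters in a window and does not show that a factor bound there. The amino acid and tRNA synthetase lists were made of genes of the ATF4 response, after values had been seen. Their shares of the motif therefore depend on how the lists were chosen, and nothing is read from them.

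By role, the transcription factors came first. *Atf4* itself had 452, 445 and 449.9 CPM in the tail libraries and 132, 131 and 133 CPM in the brain libraries, a log2 fold change of 1.77 ± 0.05 (SE). *Ddit3*, the stress factor CHOP, had 80.2, 79.9 and 83.7 against 7.65, 6.4 and 6.38 CPM, and *Atf5* had 679.7, 684 and 707 against 42.6, 38.4 and 39.9 CPM. Every tail library lay above every brain library in each of them. *Nupr1*, a small stress-induced nuclear protein gene, had 32.8, 31.1 and 34.7 CPM in tail and 0.273, 0.0985 and 0.862 CPM in brain libraries. *Cebpb* was the 1 member not called, at 7.91 ± 0.717 against 5.66 ± 0.727 CPM. Of the 7 feedback and effector genes, all were called higher. *Trib3* (chromosome 2, 152337422 to 152344032 in GRCm38), a pseudokinase that restrains ATF4, had 102, 103 and 107 CPM in tail and 0.546, 0.197 and 0.948 CPM in brain libraries. The log2 fold change was 7.47 ± 0.16 (SE), with an edgeR adjusted p of 1.36e-16. *Chac1*, which encodes a glutathione-degrading enzyme, had 173, 173 and 176 against 1.64, 1.28 and 1.55 CPM, with a log2 fold change of 6.85 ± 0.11 (SE). The endocrine factor gene *Fgf21* had 1.34, 1.36 and 0.873 CPM in tail libraries and no count in brain libraries, at least 4.33-fold higher, though it had too few counts to be tested without tail library 1 or 2 or in the thinned libraries.

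All 8 amino acid transporter genes of the list were called higher. *Slc7a5*, the light chain of the large neutral amino acid transporter, had 1698, 1672 and 1695 CPM in tail and 99.5, 97.4 and 101 CPM in brain libraries, and was among the most abundant genes that were called. Its heavy chain gene *Slc3a2* had 1032 ± 19.3 against 123 ± 3.34 CPM. The cationic amino acid transporter gene *Slc7a3* had 25.5, 27.2 and 26.2 against 0.729, 0.493 and 0.689 CPM, and *Slc7a11*, the cystine transporter, had 90.5, 89.7 and 88.1 against 39.6, 43.6 and 39.5 CPM. The differences of these 4 genes ran from a log2 fold change of 1.13 in *Slc7a11* to 5.34 in *Slc7a3*. All 11 genes of amino acid and one-carbon metabolism were called higher as well. *Asns*, asparagine synthetase, had 667, 651 and 675 CPM in tail and 47.5, 46.8 and 45.2 CPM in brain libraries. The serine pathway genes *Phgdh* and *Psph* had 725 ± 18.3 and 154 ± 2.64 CPM in tail against 219 ± 5.95 and 44.2 ± 1.51 CPM in brain cells. *Mthfd2* and *Aldh1l2*, of the mitochondrial folate pathway, had 297 ± 4.85 and 313 ± 1.66 against 34.6 ± 1.12 and 27.0 ± 2.63 CPM. Of 20 cytosolic tRNA synthetase genes, a list also chosen after values were seen, 12 were called higher and none lower, with a median log2 fold change of 1.56. *Nars* had 847, 842 and 864 against 157, 158 and 166 CPM, and *Cars* had 237, 235 and 249 against 46.7, 43.3 and 44.5 CPM.

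Chaperones of the endoplasmic reticulum, which another arm of the stress response raises, were lower by amounts mostly under the fold limit. Of 17 endoplasmic reticulum chaperone and folding genes, chosen after values were seen, 4 were called lower, 1 higher and 12 were not called, while 14 were lower at an adjusted p under 0.05 alone (over all genes, 32.4% were), and the median log2 fold change was -0.72. *Hspa5*, the main chaperone of that compartment, had 285, 278 and 285 CPM in tail and 718, 703 and 711 CPM in brain libraries, and *Calr*, encoding calreticulin, had 358, 359 and 366 against 833, 839 and 847 CPM. Both were called lower. *Herpud1*, which acts in the removal of misfolded proteins, was the member called higher, at 67.8, 69.3 and 67.8 against 10.3, 11.3 and 12.2 CPM. The mitochondrial chaperone gene *Hspa9* had 1302, 1278 and 1293 CPM in tail and 628, 608 and 611 CPM in brain libraries, and was called higher.

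Sterol genes were lower in tail pNSCs. Cholesterol is made from acetyl-CoA in a chain of steps whose genes respond together to SREBP2, encoded by *Srebf2*. Of 25 sterol genes, again chosen after values were seen, 20 were called lower and 1 higher, with a median log2 fold change of -2.02. Summed, they had 1417 to 1429 CPM in tail and 5144 to 5188 CPM in brain libraries. *Hmgcs1* (chromosome 13, 119690379 to 119708260 in GRCm38), which makes HMG-CoA, had 215, 209 and 209 CPM in tail and 1403, 1395 and 1364 CPM in brain libraries. The log2 fold change was -2.72 ± 0.03 (SE), with an edgeR adjusted p of 1.89e-19. Further down the chain *Idi1* had 3.98, 4.32 and 5.39 against 41.0, 47.4 and 43.9 CPM. In both genes the highest tail library lay below the lowest brain library. *Srebf2* had 266 ± 0.758 against 490.2 ± 9.17 CPM, under the fold limit.

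The amino acid and sterol differences were not seen as a group in the other 2 sets of pNSCs. DRG pNSCs had *Trib3* at 1.38, 0.801 and 0.786 CPM, *Asns* at 62.7, 67.1 and 65.0 CPM and *Hmgcs1* at 1279.6, 1276 and 1259 CPM, each nearer to brain NSCs than to tail pNSCs. Against brain NSCs in the same fit, which called 9.53% of all genes (3.12% higher and 6.41% lower), 2 of the 32 amino acid genes were called lower in DRG pNSCs and none higher, and 1 of the 25 sterol genes was called higher and none lower. In the separate pair, Tail-pNSC libraries had *Trib3* at 1.79 and 1.54 and Brain-NSC libraries at 1.11 and 1.25 CPM. *Hmgcs1* had 1326 and 1355 CPM in Tail-pNSC and 1597 and 1530.0 CPM in Brain-NSC libraries. There 2 of 31 tested amino acid genes were called higher and 1 lower, and no sterol gene was called. The fit over all 28 libraries tested whether the tail minus brain difference itself differed between the pairs, and called 28 of the 32 amino acid genes, 12 of the 20 tRNA synthetase genes and 22 of the 25 sterol genes, where 16% of all genes were called. These lists were chosen for the Wnt1Cre-mTmG difference, which is part of that contrast, so nothing is read from these counts, and of all genes called in the Wnt1Cre-mTmG pair 54.5% were called by it.

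**Figure D4:**
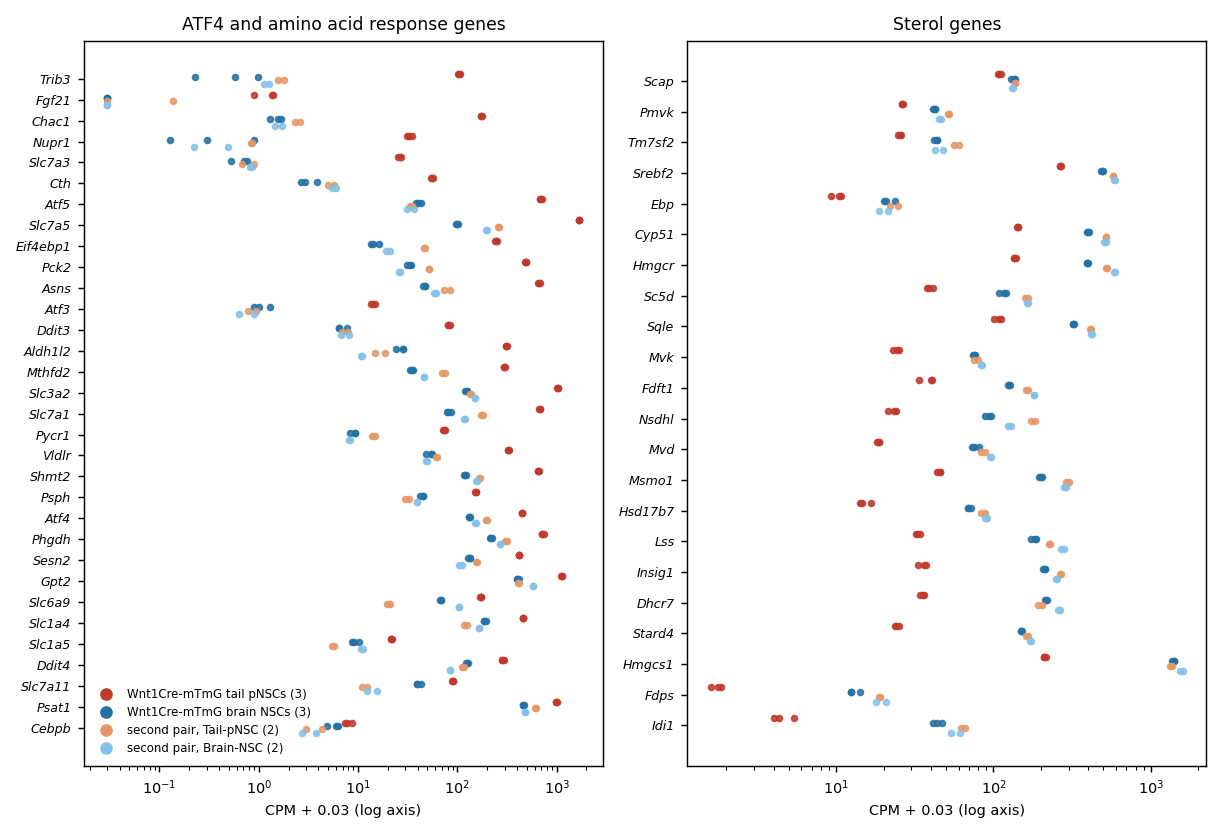
Levels of 32 ATF4 and amino acid response genes (left) and 22 of the 25 sterol genes (right), each row a gene and each point a library, in CPM with 0.03 added on a log axis. Wnt1Cre-mTmG tail pNSCs (red) stand to the right of the 3 other groups in the left panel and to the left of them in most rows of the right panel.

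Glial and neuronal genes differed gene by gene. Of 16 astrocyte genes 15 were tested, 3 were called higher and 3 lower. *Aldh1l1*, a folate enzyme used as an astrocyte marker, had 10.8, 11 and 10.9 CPM in tail and 969, 987 and 998 CPM in brain libraries, a log2 fold change of -6.50 ± 0.09 (SE), and DRG pNSCs had 117 ± 4.90 CPM. *Sparcl1*, a secreted synapse-promoting protein gene, went the other way, at 1597, 1596 and 1620.2 against 258, 253 and 260.4 CPM. The clusterin gene *Clu* had 8.75 ± 1.10 against 56.4 ± 1.85 CPM, and the water channel gene *Aqp4* had 60.7 ± 1.51 against 116 ± 1.45 CPM, the latter under the fold limit. Of 16 oligodendrocyte lineage genes 5 of the 15 tested were called lower and none higher, and 3 in the thinned libraries. *Gpr17*, a receptor of differentiating oligodendrocytes, had 10.8, 10.7 and 12.2 CPM in tail and 44.4, 37.6 and 46.0 CPM in brain libraries, and *Ugt8a*, a myelin lipid enzyme gene, had 1.61, 1.22 and 1.49 against 11.7, 10.4 and 13.7 CPM. The progenitor genes *Pdgfra* and *Cspg4* were not called, *Pdgfra* at 41.4 ± 1.11 against 22.9 ± 0.475 CPM.

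Among neuronal genes most of the early ones rose and several later ones fell. Of 9 tested proneural and early genes (of 10) 8 were called higher and 1, the RNA binding protein gene *Elavl3*, was not called, at 15.99 ± 0.881 against 22.2 ± 1.98 CPM, and of 11 tested genes of mature neurons 1 was called higher and 5 lower. *Neurog2*, a proneural factor, had 4.39, 3.90 and 4.26 CPM in tail and 0.182, 0.296 and 0.0862 CPM in brain libraries, a tail-to-brain ratio of 22.8 (95% counting interval 10.3 to 62.8), and *Neurod4* had 3.89, 3.90 and 4.11 against 0.0911, 0.0985 and 0.172 CPM. *Dcx*, the microtubule protein gene of young neurons, had 23.5, 23.1 and 22.7 against 9.74, 9.85 and 9.91 CPM. Every tail library lay above every brain library in these 3 genes. *Gad1*, which makes the transmitter GABA, had 0.0448, 0.0470 and 0.0513 CPM in tail and 3.55, 2.17 and 3.02 CPM in brain libraries, and the synaptic vesicle gene *Syt1* had 0.806, 0.799 and 0.411 against 2.19, 2.07 and 2.67 CPM. *Rbfox3*, which encodes the neuronal marker NeuN, was the mature gene called higher, at 10.4, 9.87 and 9.19 against 1.46, 1.77 and 0.948 CPM.

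Signalling pathways of the neural tube were followed by the roles of their genes. In the Sonic hedgehog pathway 6 of 14 genes were called higher and none lower. *Ptch1*, both receptor and target, had 381, 385 and 374 CPM in tail and 164, 161 and 169.7 CPM in brain libraries, and the co-receptor gene *Boc* had 68.5, 74.2 and 70.3 against 13.9, 12.3 and 13.3 CPM. The target *Gli1* was low in both groups, at 1.30, 1.5 and 1.34 against 0, 0.0985 and 0.0862 CPM, and *Shh* itself had 0.959 ± 0.301 against 0.492 ± 0.146 CPM and was called higher only without tail library 3 or brain library 1. In the Notch pathway, which keeps neural progenitors from differentiating, 8 of 20 genes were called higher and none lower. Of the receptors *Notch1*, *Notch2* and *Notch3* were called and *Notch4* was not. *Notch1* had 864, 859.6 and 852 CPM in tail and 282, 289.6 and 275 CPM in brain libraries, the ligand gene *Jag1* had 68.4, 64.0 and 62.6 against 15.3, 13.8 and 16.1 CPM, and the targets *Hes1* and *Hes5* had 95.3 ± 2.09 and 46.5 ± 1.79 CPM in tail against 41.2 ± 1.82 and 22.5 ± 1.37 CPM in brain cells. Both were called higher, *Hes5* not in the thinned libraries.

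In the Wnt pathway 10 of the 35 genes tested (of 40) were called higher and 5 lower. The ligands divided, with *Wnt3* and *Wnt4* higher and *Wnt5a* and *Wnt5b* lower. *Wnt5a* had 75.2, 72.8 and 76.4 CPM in tail and 193, 192 and 190.4 CPM in brain libraries. The secreted modulator gene *Dkk3* had 12.8, 14.0 and 13.8 against 1.09, 1.08 and 0.948 CPM, while the common target *Axin2* had 53.7 ± 0.512 against 46.1 ± 1.46 CPM and was not called. In the BMP and TGF-beta pathway 9 of 34 tested genes (of 35) were called higher and 1 lower. The inhibitor genes *Nog* and *Fst* went opposite ways, *Nog* at 8.46, 8.60 and 9.09 against 1.73, 1.38 and 1.98 CPM and *Fst* at 0.761, 0.893 and 1.08 against 2.82, 2.96 and 2.50 CPM. The intracellular inhibitor gene *Smad6* had 6.04, 4.65 and 5.65 against 0.273, 0.197 and 0 CPM, a tail-to-brain ratio of 35.7 (95% counting interval 15.1 to 111). EGF and basic FGF were in the medium of both cultures, and their receptor genes *Egfr* and *Fgfr1* were not called, *Egfr* at 759.7 ± 11.8 against 519.5 ± 11 CPM and *Fgfr1* at 388 ± 2.41 against 288 ± 6.87 CPM. Of 10 tested ligand genes of these families, 5 were called lower, among them *Fgf1* at 27.4 ± 1.23 against 77.8 ± 0.289 CPM and *Areg* at 0.348 ± 0.0612 against 2.82 ± 0.647 CPM, and *Fgf2* and *Fgf18* were called higher.

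Axon guidance, integrin and laminin genes held more rises than falls, where 9.16% of all genes were called higher and 9.05% lower. Gamma-protocadherin genes, given at the end, held 6 falls and no rise. Of 35 guidance and Eph–ephrin genes, all tested, 14 were called higher and 2 lower. *Robo2*, a Slit receptor gene, had 267, 267 and 272 CPM in tail and 58.5, 59.0 and 55.6 CPM in brain libraries, and the Slit ligand gene *Slit1* had 45.9, 46.6 and 46.6 against 6.19, 7.0 and 8.36 CPM. The repulsive cue gene *Sema3a* had 213, 219 and 218 against 56.5, 57.7 and 52.1 CPM. Groups did not overlap in any of the 3 genes. Of 26 integrin and laminin genes 7 were called higher and 2 lower. *Itga6*, a laminin receptor used to enrich neural stem cells, had 549.8, 553 and 547 against 148, 145 and 153 CPM, and *Itga2*, a collagen receptor, had 39.8, 40.1 and 39.0 against 2.73, 2.36 and 2.67 CPM. *Itga4* was lower, at 8.80 ± 0.0792 against 29.5 ± 1.18 CPM. Of 12 tested classical cadherin genes (of 18) only *Cdh11* was called, at 122 ± 1.94 against 60.2 ± 3.13 CPM, and not without brain library 1 or with upper-quartile scaling.

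Genes of developmental timing held rises and no falls. Of 13 tested timing genes (of 15) 6 were called higher and none lower, 4 of the 5 tested genes typical of fetal stem cells and 2 of the 8 other genes. At an adjusted p under 0.05 alone all 5 fetal and 7 of the 8 other genes were higher, as were 33.1% of all genes. *Igf2bp1* (chromosome 11, 95957163 to 96005940 in GRCm38), an RNA binding protein gene shut off around birth in many tissues, had 31.4, 31.8 and 31.5 CPM in tail and 0, 0.0985 and 0 CPM in brain libraries. Its relative *Igf2bp2* had 84.7, 87.3 and 89.9 CPM in tail and 7.74, 8.67 and 11.5 CPM in brain libraries, and *Igf2bp3* had 87.9, 87.7 and 83.2 against 1.09, 0.394 and 0.776 CPM. *Hmga2*, a chromatin protein gene that declines in ageing neural stem cells, had 67.1, 67.6 and 67.0 against 8.65, 6.31 and 6.72 CPM. The tail libraries lay above the brain libraries in all 4 genes. Of the 8 other genes *Nr2f2*, a nuclear receptor gene, had 42.2, 41.7 and 40.6 CPM in tail and 5.83, 5.91 and 6.38 CPM in brain libraries. *Mycn*, a growth regulator gene, had 19.7, 20.1 and 21.4 against 3.83, 3.45 and 5.00 CPM. The age of the brain donors was not given, and the part of age was not tested. In the separate pair *Igf2bp2* had 70.4 and 70.4 CPM in Tail-pNSC and 3.03 and 3.79 CPM in Brain-NSC libraries, and *Igf2bp3* had 34.9 and 33.6 against 0.529 and 1.25 CPM.

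Imprinted genes are expressed from the copy of 1 parent, and many of them act on fetal growth. Of 23 such genes 22 were tested, 14 were called higher and none lower, with a median log2 fold change of 1.67. By the copy listed as expressed, 8 of 9 tested maternally expressed genes and 6 of 13 paternally expressed genes were called. The counts do not tell the parental copies apart, so the copy in use in these cells was not measured. *Grb10* (chromosome 11, 11930508 to 12038683 in GRCm38), an adaptor that restrains insulin and IGF signalling, had 599, 612 and 601 CPM in tail and 3.55, 4.04 and 3.19 CPM in brain libraries. The log2 fold change was 7.40 ± 0.06 (SE), with an edgeR adjusted p of 1.25e-21, and the separate Tail-pNSC libraries had 9.22 and 11.2 CPM against 1.54 and 1.43. The noncoding RNA gene *H19* had 46.0, 45.9 and 45.5 CPM in tail and 0.820, 1.48 and 0.431 CPM in brain libraries. *Magel2* had 16.6, 16.5 and 15.5 CPM in tail libraries and no count in brain libraries, at least 58.8-fold higher. *Cdkn1c*, a cell cycle inhibitor gene, had 18.9, 18.9 and 20.03 against 1.00, 1.08 and 1.55 CPM. Several of the genes listed as maternally expressed, such as *H19*, *Dcn* and *Meg3*, are also high in mesenchymal cells, and *Dcn* was counted in the mesenchymal list too.

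Cell cycle genes were lower by amounts mostly under the fold limit. Of 27 genes 2 were called higher and 4 lower, while 22 were lower at an adjusted p under 0.05 alone, against the same 32.4% of all genes, and the median log2 fold change was -0.60. *Ccnd1*, the cyclin of G1 driven by growth factors, had 329, 335 and 324 CPM in tail and 1463, 1489.8 and 1476 CPM in brain libraries, and *Ccne1* had 13.2, 13.6 and 12.2 against 41.3, 46.3 and 44.4 CPM. Both were called lower. *Mki67*, which marks cycling cells, had 409, 413 and 388 against 734, 721 and 755 CPM, under the fold limit. The inhibitor gene *Cdkn2a* was lower, at 29.9 ± 1.68 against 96.4 ± 2.60 CPM. In the separate pair *Ccnd1* had 857 and 856 CPM in Tail-pNSC and 679 and 692 CPM in Brain-NSC libraries. Of 22 antigen presentation and interferon genes 8 were called lower and 3 higher, among them *Ifit2* at 5.84 ± 0.919 against 57.6 ± 0.639 CPM. Of 10 pluripotency genes 3 could be tested, *Nanog* had 1.37 ± 0.123 against 0.332 ± 0.130 CPM and was called higher (with too few counts to be tested in the thinned libraries), and *Tbx3* was called lower at 0.384 ± 0.0747 against 0.820 ± 0.200 CPM, though not without tail library 1 or brain library 3.

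Sex chromosome genes set the groups apart in a mixed way. *Xist*, the noncoding RNA that coats the inactive X of female cells, had 1164, 1219 and 1121 CPM in the tail libraries and 0, 0.197 and 0.0862 CPM in the brain libraries. The Y-linked gene *Eif2s3y* had 21.1, 23.3 and 23 CPM in tail and 80.1, 82.8 and 83.9 CPM in brain libraries, and *Kdm5d* had 22.4, 23.9 and 22.4 against 70.8, 73.0 and 67.9 CPM. Each tail library thus held RNA of *Xist* and of Y-linked genes together, and each brain library held Y-linked RNA and at most 2 counts of *Xist*. The study calls its picked clusters usually clonal, but whether a library came from 1 cluster or more was not given. The mix of cells in a library was not tested. *Uty* and *Ddx3y* were called lower in tail pNSCs as well, at 13.4 ± 0.894 and 34.6 ± 1.13 against 38.0 ± 0.875 and 72.8 ± 2.31 CPM. The 4 tested X genes that escape inactivation were not called, *Ddx3x* at 795 ± 6.72 against 540.4 ± 10.2 CPM. The medians of the chromosomes 1 to 19 and X lay between -0.06 and 0.05 on the log2 scale. The difference between tail and brain and a difference in the sex of the cells cannot be told apart for these genes.

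Ranked over all genes with a mean of at least 10 CPM, the 12 largest rises were *Xist*, 8 *Hox* genes, *Igf2bp1*, *Tmem132c* and *Trib3*. *Tmem132c*, a transmembrane protein gene, had 37.8, 38.5 and 40.4 CPM in tail and 0.182, 0 and 0.0862 CPM in brain libraries. The 12 largest falls held *Six3*, *Six3os1*, *Nr2e1*, *Emx2*, *Aldh1l1*, the glutamate receptor gene *Grm3* and, among others, *Nrn1*, a neurite growth factor gene, at 0.0448, 0.0470 and 0 against 26.2, 27.6 and 27.2 CPM. The complement gene *C4b* had 0.0448, 0.0470 and 0.103 against 23.9, 23 and 23.8 CPM, the peroxidase gene *Lpo* had 4.30, 3.76 and 4.52 against 131, 124 and 125 CPM, and *AC165951.1*, a gene known by its clone name, had 0.806, 0.940 and 0.770 against 25.1, 25.3 and 22.6 CPM. The falls also held *Pcdhgc5*, whose exons overlap those of other protocadherins. Of the genes called higher, the one with the most CPM, a measure that favours long transcripts, was *Tnc*, an extracellular glycoprotein of stem cell niches, at 3314, 3335 and 3261 against 1007, 1008 and 1033 CPM. *Igfbp5*, which binds insulin-like growth factors, had 1888, 1881 and 1847 against 95.3, 91.3 and 94.0 CPM, and *Spon1*, a matrix protein of the floor plate, had 1265, 1262 and 1265 against 167, 170.5 and 169 CPM. The receptor gene *Adcyap1r1* had 1430.3 ± 8.56 against 537 ± 14.7 CPM. Of the genes called lower, those with the most CPM in brain NSCs included *Rab31*, a vesicle traffic gene, at 716 ± 5.35 against 1551 ± 31.3 CPM, and the tubulin gene *Tubb5* at 659 ± 13.1 against 1352 ± 31.0 CPM. *Igfbp3* had 327 ± 6.29 against 1086 ± 2.42 CPM and the processing enzyme gene *Cpe* had 417 ± 10.5 against 864 ± 5.53 CPM.

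At the extremes, 32 genes had at least 1 CPM in every tail library and no count in any brain library, and 11 genes the reverse. The first set held, beside 16 *Hox* genes and *Magel2*, the transcription factor gene *Ebf2* with a mean of 5.68 CPM, the neurotrophic factor gene *Gdnf* with 2.53 CPM and the fibroblast surface protease gene *Fap* with 1.56 CPM. These 3 were picked after their values were seen. The reverse set included *Six3*, *Otx1*, *Otx2*, *Foxa1*, *Htr1b*, *Zfp264*, *Nkx2-4*, *Barhl2* and *CR555305.2*, most of them transcription factors of forebrain or midbrain.

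The separate pair gave a second measure of tail against brain in other libraries. Its tail cells, if from the Nestin-GFP experiment, were sorted before culture, and the part of this difference was not tested. Its fit called 1848 of 16948 genes (10.9%), 731 higher (4.31%) and 1117 lower (6.59%) in Tail-pNSC. Among 14237 genes tested in both pairs, the Wnt1Cre-mTmG pair called 2543 and the separate pair 1667. Of these, 664 were called in the same direction, which is 26.1% of the first and 39.8% of the second, and 185 in opposite directions, 7.27% of the first. Of 36 tested *Hox* genes 19 were called higher in Tail-pNSC and none lower. *Hoxd8* had 39.3 and 40.1 CPM there against 38.7, 39.6 and 40.2 in the Wnt1Cre-mTmG tail libraries, and *Hoxb9* had 25.4 and 22.7 CPM against 83.0, 82.8 and 83.0, with no count in either set of brain libraries. Of 21 tested forebrain factors 11 were called lower and 4 higher. *Nr2e1* had 39.0 and 37.1 CPM in Brain-NSC libraries and none in Tail-pNSC libraries, whereas *Lhx2* had 35.7 and 39.2 in Tail-pNSC and 35.3 and 34.5 CPM in Brain-NSC libraries. *Nkx6-1* had 68.1 and 70.5 against no count, at least 489.9-fold higher. The interaction test over all 28 libraries called 2785 of 17393 genes (16%) as differing between the pairs, and 1434 of the 2630 genes called in the Wnt1Cre-mTmG pair (54.5%) were among them. By list, it called 4 of 36 *Hox* genes, 10 of 22 forebrain factors, 11 of 19 neural stem cell genes, 9 of 23 mesenchymal genes and 5 of 23 imprinted genes. Of the 23 mesenchymal genes 6 were called higher and 3 lower in the separate pair, and of its 19 neural stem cell genes 1 was higher and 2 were lower.

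**Figure D5:**
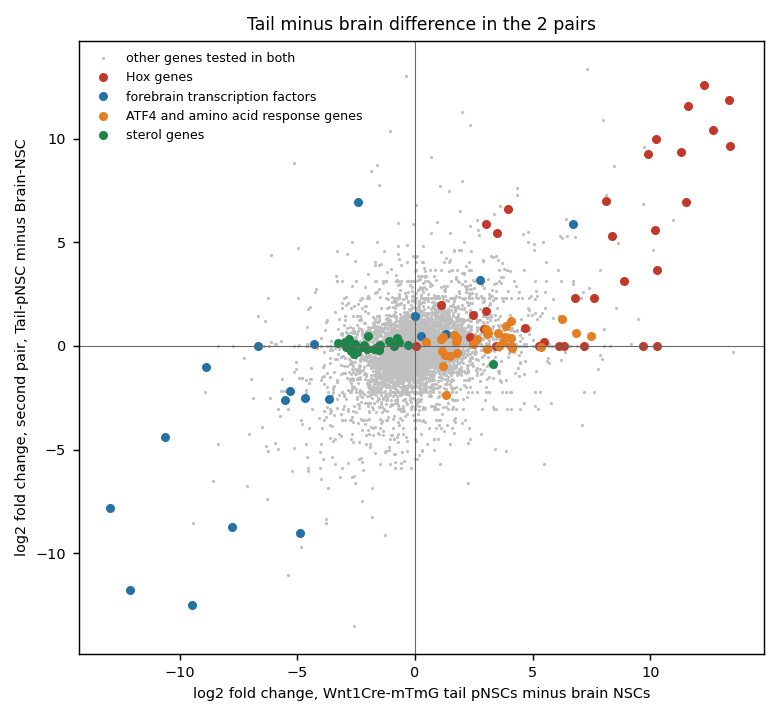
Tail minus brain log2 fold change of each gene tested in both pairs, Wnt1Cre-mTmG on the horizontal and the separate pair on the vertical axis. *Hox* genes lie at the right in the upper part or on the axis and many forebrain factors at lower left, whereas the amino acid genes stretch to the right and the sterol genes to the left along the horizontal axis. Fold changes of genes without counts in a group depend on edgeR's prior count.

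In overall distance over the tested genes (Euclidean distance of log2 CPM with 1 added), a tail library lay 95.9 to 96.2 from a brain library and 92.9 to 93.3 from a DRG pNSC library, whereas a brain and a DRG pNSC library lay 69.7 to 70.4 apart. Libraries of 1 group lay 14.5 to 15.3 apart among tail and 20.1 to 21 among brain cells. A DRG NCSC library lay 187.4 to 187.7 from a tail library and 189.9 to 190.7 from a brain library. It lay 194.6 to 195.4 from a DRG pNSC library. The total counts were 9808246 to 11431445 in DRG pNSC, 9846360 to 11315870 in brain and 19648349 to 22548268 in tail libraries. Brain NSCs and DRG pNSCs were thus closest in both distance and depth, and the part of depth was not tested. DRG pNSCs differed from brain NSCs in 1377 genes and tail from DRG pNSCs in 2596 (18%). These comparisons share libraries and are not independent of each other.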

How the data were processed

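RNA was polyA-selected and sequenced as single-end reads by the study. The deposited table holds raw read counts per gene, which the authors made with HISAT2, Cufflinks and HTSeq on GRCm38; the strand setting, the treatment of reads in overlapping genes and the annotation release are not given in the sources used here. Its 28 columns were matched to samples by title, and symbols to coordinates by name (27909 of 28244 genes in GENCODE, 216 in RefSeq). Of 213 genes named here, 81 overlap a gene on the opposite strand, whose reads may be included. A gene on the same strand overlaps 51 of them.

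Counts were fitted with edgeR 4.0.16 in R 4.3.3 (filterByExpr with a minimum count of 10 and total of 15, TMM, quasi-likelihood test) over the 12 libraries of the Wnt1Cre-mTmG experiment: tail pNSCs, brain NSCs, DRG pNSCs and DRG NCSCs, 3 each. NCSC library 3 stood apart from the other two (chi-square per degree of freedom of 16.8 and 21.02, against 2.217 between those), and the 6 libraries alone were fitted as an alternative. The separate pair was fitted over the 10 libraries of its experiment and the difference between pairs over all 28. The table alone sets the depth given in the text; intervals and "at least" folds cover counting error only. Figures were drawn with matplotlib 3.10.9. Deviations of tail and brain libraries of the same replicate number correlated at 0.04, 0.01 and 0.03, and those of different number at -0.04 to 0.02. As libraries of a group differed by little more than counting error, these values cannot show whether the samples were paired. Genes were named from the gene lists, from the 12 largest rises and falls at a mean of at least 10 CPM without overlap of the groups (predicted genes passed over), from the 8 most abundant genes called in each direction and from the 5 largest differences between pairs in each direction. The members, lists and tests were chosen with earlier results of these data known. Some genes are not reported here. The code was tested on simulated counts. Alternatives were other scaling (RLE, upper quartile), DESeq2 1.42.0, other filters, libraries thinned to equal totals, a replicate block, fewer libraries in the fit, other fold limits and leaving out each library.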

Additional observations from a re-analysis of the deposited data

Results flagged for a closer look

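The difference between tail and brain cells itself differed between the Wnt1Cre-mTmG pair and the separate Tail-pNSC and Brain-NSC pair in 2785 of 17393 genes (16%), by edgeR's interaction test over all 28 libraries. The 5 largest differences in each direction among genes with a mean of at least 10 CPM are given here as the Wnt1Cre-mTmG log2 fold change minus that of the separate pair. None of them says which of the 4 groups is the unusual one.

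*Xist* differed by 13.80 ± 0.15 (SE), since it had 1508 and 1436 CPM in Tail-pNSC and 1712 and 1856 CPM in Brain-NSC libraries and was near 0 in the Wnt1Cre-mTmG brain libraries. The Y-linked genes differed the other way, *Ddx3y* by -11.40, *Eif2s3y* by -10.30, *Kdm5d* by -10.30 and *Uty* by -9.26, as no Y-linked count was found for them in Brain-NSC libraries, so that these values, like those of *Zic1* and *Fndc3c1*, which also had a group at 0, depend on edgeR's prior count. *Zic1*, a dorsal neural tube factor, differed by 10.85: it had 0.850, 0.470 and 1.08 CPM in Wnt1Cre-mTmG tail and 5.74, 3.94 and 4.74 CPM in brain libraries, and 0 and 0 CPM in Tail-pNSC and 76.9 and 72.8 CPM in Brain-NSC libraries. *Trib3* differed by 6.98 and *Col6a3* by 6.85, with the levels given above. *Ddr2*, a collagen receptor gene, differed by 6.93, with 104, 100.5 and 99.9 CPM in Wnt1Cre-mTmG tail and 18.9, 21.3 and 23.2 CPM in brain libraries against 6.67 and 7.55 and 180.4 and 182 CPM in the separate pair. *Fndc3c1* differed by -13.38, with 9.09, 9.07 and 9.19 CPM in Wnt1Cre-mTmG tail and 10.2, 12.6 and 13.1 CPM in brain libraries, and 52.7 and 55.7 CPM in Tail-pNSC and 0 and 0 CPM in Brain-NSC libraries.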

How the results depend on the processing

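The number of genes called between tail pNSCs and brain NSCs, 2630, was 1457 with only genes of a mean count of at least 100 (fewer genes tested), 1729 with edgeR's glmTreat against a log2 fold change of 1, and 9460 with no fold limit. It was 2623 with DESeq2, 2952 without a filter, 2383 with the 6 libraries alone, 2441 with libraries thinned to equal totals and 2543 to 2647 leaving out 1 library. With upper-quartile scaling 1286 genes were higher and 1346 lower. With the replicate number as a block the counts were 2625 for tail against brain, 2594 for tail against DRG pNSCs and 1788 for the separate pair. Between tail and DRG pNSCs the number, 2596, was 2535 to 2616 leaving out 1 library and 9417 with no fold limit, and in the separate pair, with 1848, it was 8318 with no fold limit. The number called by the interaction, 2785, was 1780 at a mean count of at least 100, 8466 with no fold limit and 2630 to 2745 leaving out 1 library. Quantile normalization of log2 counts raised the mean distance between tail and brain from 96.1 to 133.9, and between tail and DRG pNSC from 93.1 to 125.7; the cause was not tested. Of 532 counts of called members over 38 lists and their alternatives, 498 stayed within 1.5 times. Of the 34 that did not, in 17 lists, 15 were counts among genes with a mean count of at least 100, where fewer genes were tested. There the calls were 13 higher of *Hox*, 3 higher and 3 lower of forebrain, 1 and 1 of midbrain and hindbrain, 4 and 1 of dorsoventral, 3 and 0 of retinoic acid, 4 and 3 of neuronal, 6 and 3 of Wnt, 4 and 0 of BMP and TGF-beta, 1 and 3 of antigen presentation and interferon and 1 and 9 of glutamate and GABA receptor genes, 3 lower of oligodendrocyte and 1 lower of endothelial genes, and none of ependymal, muscle or pluripotency genes. The other 19 were in the leukocyte, muscle, ependymal, oligodendrocyte, cadherin and pluripotency lists, which had 1 to 5 calls each. Of the named genes, *Twist1* had a log2 fold change of 0.032 with libraries thinned to equal totals and -0.099 to 0.043 leaving out 1 library (-0.032 with all libraries), and in the thinned libraries *Cd68*, *Csf1r*, *Hes5* and *Pecam1* lost their calls and *Fgf21* and *Nanog* could not be tested. With the 6 libraries alone *Csf1r*, *Des* and *Pecam1* could not be tested, with the replicate block *Csf1r* lost its call, and with glmTreat 16 of the named genes did. Depth limits the low genes: 3 counts stand for 0.259 to 0.296 CPM in a brain library and 0.134 to 0.154 CPM in a tail library.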

Other observations

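Receptors for glutamate and GABA were lower in tail pNSCs in many members. Of 42 such genes, a list chosen after values had been seen, 36 were tested, 17 were called lower and 3 higher, with a median log2 fold change of -1.06. *Gria1*, a subunit of the AMPA-type glutamate receptor, had 3.98, 2.82 and 3.18 CPM in tail and 94.4, 93.7 and 96.9 CPM in brain libraries, with a log2 fold change of -4.83 ± 0.08 (SE), and *Gria2* had 82.3, 85 and 81.7 against 277, 279 and 269 CPM. The metabotropic receptor gene *Grm3* had 1.12, 1.03 and 0.770 CPM in tail and 54.1, 48.8 and 51.7 CPM in brain libraries, with DRG pNSCs at 37.5 ± 1.93 CPM, and *Grm5* had 274 ± 6.91 against 458 ± 6.34 CPM, under the fold limit. In the separate pair 13 of 33 tested members were called lower and 4 higher in Tail-pNSC, and the interaction called 17 of 38.

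Gamma-protocadherins, adhesion proteins with many first exons and a shared end, gave 6 of 21 tested genes called lower and none higher in tail pNSCs, in a list of 22 also chosen after values had been seen. *Pcdhgc4* had 2.19, 3.34 and 2.31 against 35.9, 40.8 and 37.1 CPM and *Pcdhgc5* had 1.34, 1.27 and 0.822 against 41.2, 36.6 and 39.3 CPM. The gene models overlap on 1 strand and share exons, so that counts of single members are uncertain.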
